A study of Mus musculus with 6 samples.

Results

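The cells described here are the Cdkn1a-high cells of an ionocyte gate in the epithelium of the irradiated mouse submandibular gland, 194 cells of 16640 in the series. They were chosen in 3 steps from the irradiated library. A filter of 500 or more genes and no more than 20% of UMIs (unique molecule counts) from mitochondrial genes kept 2629 cells. An ionocyte gate then took cells with at least 5 UMIs summed over Ascl3, Foxi1, Atp6v0d2 and Atp6v1b1, and with under 3% of UMIs in Egf and the Klk1b kallikrein genes, which granular duct cells secrete. Of 966 gate cells with a hashtag, the 20% with the most Cdkn1a UMIs per 10000 within each mouse became the Cdkn1a-high cells, 28, 127 and 39 in mice 1, 2 and 3. They were compared with the 311 gate cells that held 0 or 1 Cdkn1a UMI, the Cdkn1a-low cells, of which 31, 212 and 68 came from the same mice. The other 461 gate cells lay between both.

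The series has 3 gene expression libraries from submandibular glands of female C57BL/6J mice, each with a hashtag library that marks which of 3 pooled mice a cell came from. The first is a basal sort (Epcam+, Cd49f-high) of untreated wild-type mice, which held 8 gate cells and was not used further. The second is the whole epithelium (Epcam+) of untreated wild-type mice. The third is the whole epithelium collected 90 days after 30 Gy given to the left gland, and mice of all libraries are labelled as 8 to 10 weeks old. Each whole-epithelium condition is 1 library of 3 mice, so irradiation, library and any difference in age at collection cannot be told apart.

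Cdkn1a encodes p21, an inhibitor of cyclin-dependent kinases that stops the cell cycle. Its gene is a direct target of p53, the transcription factor that DNA damage stabilises. Other p53 targets include Mdm2, whose product degrades p53, Ccng1, Phlda3, the death genes Bax and Aen, and the secreted factor Gdf15. Ionocytes are rare duct cells that carry a proton-pumping V-ATPase, chloride channels and the transcription factors Foxi1 and Ascl3. Granular convoluted duct cells are the cells of the rodent submandibular gland that secrete kallikreins and Egf.

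The irradiated whole-epithelium library held 58485558 gene UMIs over 3319 barcodes, and the untreated one 137835128 over 8277. Gate cells had a median of 19017 ± 273 UMIs after irradiation and 12178 ± 484 without it (mean of the mouse medians ± SD, n = 3 mice each; exact two-sided permutation p = 0.1, the smallest that 3 against 3 allows). Mitochondrial UMIs made up 5.23% ± 0.639 and 12.1% ± 0.129 (n = 3 mice each; exact permutation p = 0.1). Both whole-epithelium libraries shared 8 barcodes. The strongest hashtag held 91.7% of the hashtag UMIs of the median Cdkn1a-high cell and 62.3% of those of the median untreated gate cell.

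Most Cdkn1a-high cells lacked the ionocyte genes that the gate was meant to select. Stap1, Atp6v1g3 and Rcan2 are ionocyte markers that the gate did not use. Together they reached at least 4 UMIs per 10000 in 65 of the 194 Cdkn1a-high cells (33.5%; 3, 43 and 19 cells in mice 1, 2 and 3), in 277 of 311 Cdkn1a-low cells (89.1%) and in 309 of 461 cells between (67.0%). The limit of 4 was set after the values were seen; 15 Cdkn1a-high cells lay between 2 and 8, and 119 were under 0.5. The 65 cells are called identity-positive here, and the other 129 identity-negative.

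The gate genes themselves showed the same division. Atp6v0d2, a V-ATPase subunit, made up 94.5% of the gate-gene UMIs of the identity-negative Cdkn1a-high cells, 40.4% of those of the identity-positive ones and 40.1% of those of the Cdkn1a-low cells. In 623 irradiated granular cells outside the gate, those with 3% or more of granular genes, it was 98.4%. No UMI of Ascl3 or Foxi1 was found in 114 of the 194 Cdkn1a-high cells (58.8%), against 40 of 311 Cdkn1a-low cells (12.9%). Ascl3 stood at 56.8, 153 and 431 CPM (UMI counts scaled to a common library total) in the identity-positive cells of mice 1, 2 and 3, and at 0, 3.53 and 0 CPM in the identity-negative ones.

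Granular duct genes ran the opposite way. The Klk1b genes and Egf took 1.07% of the UMIs of the median Cdkn1a-high cell and 0.0365% of the median Cdkn1a-low cell. The median was 1.69% in the identity-negative cells and 0.0369% in the identity-positive ones, of which 6 were over 1%. The 15 granular duct markers summed to 169093 to 179420 CPM over the mice in identity-negative cells, 863 to 43268 CPM in identity-positive cells and 306376 to 355844 CPM in granular cells outside the gate. The 10 ionocyte markers summed to 384 to 433, 1998 to 3935 and 230 to 291 CPM in the same order. That order was partly fixed, since 4 of the 10 made the gate and 3 made the split, and it is given as a description. The gate and the split did not use Cftr, a chloride channel, Moxd1 and P2ry14. Cftr was at 31.9, 49.4 and 23 CPM in identity-negative and at 56.8, 55.1 and 59.1 CPM in identity-positive cells, and Moxd1 at 0, 0.504 and 0 CPM against 22.7, 5.51 and 14.1 CPM. P2ry14 had 7 and 5 UMIs in all and did not separate them. Most of the set thus lacked the genes its label implies, and it is called by its rule.

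**Figure D1:**
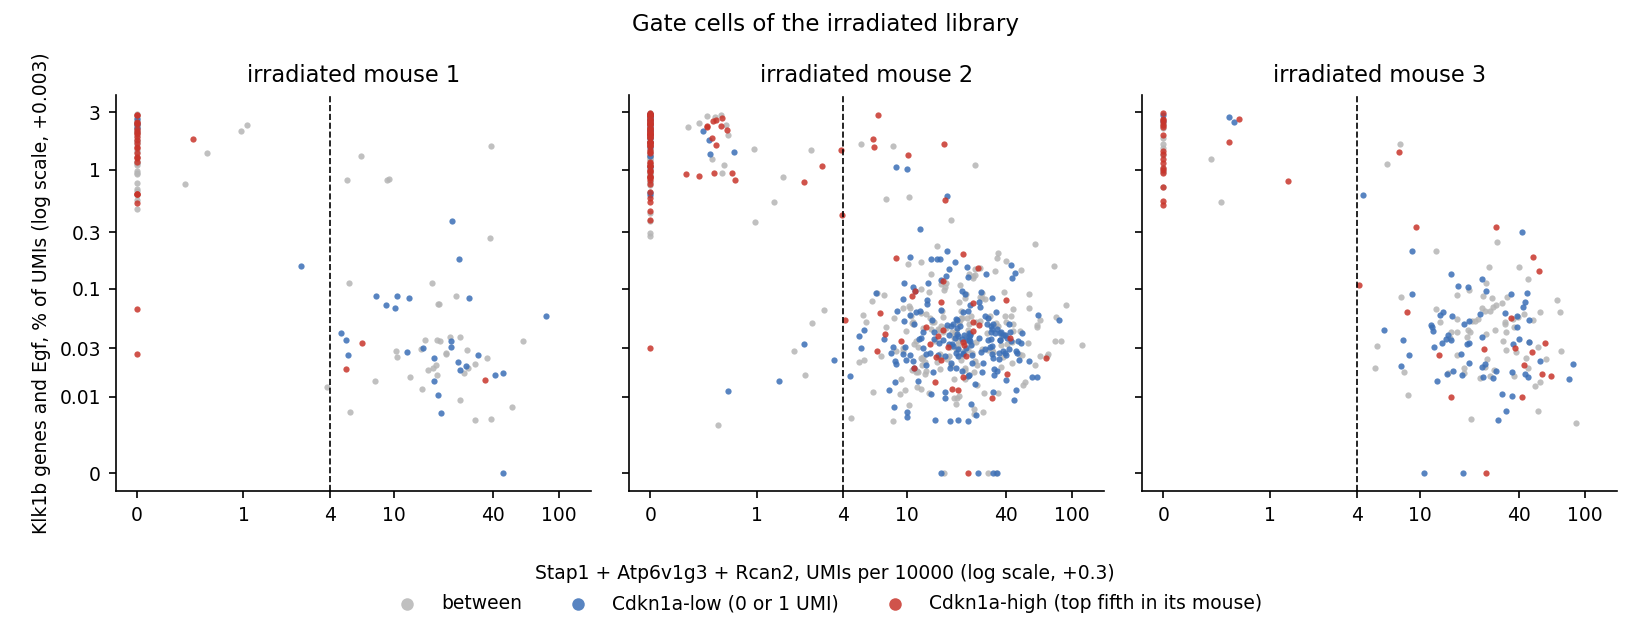
Gate cells of the 3 irradiated mice, 1 point per cell: summed Stap1, Atp6v1g3 and Rcan2 per 10000 UMIs (x, log scale) against the percent of UMIs in Klk1b genes and Egf (y, log scale), coloured by Cdkn1a group; the dashed line is the limit of 4. Cdkn1a-high cells (red) lie in a cloud with ionocyte genes (3, 43 and 19 cells) and in a larger one with few or none (25, 84 and 20 cells).

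The Cdkn1a-high cells held 4 to 134 Cdkn1a UMIs, with a median of 17.5. These values chose the cells and are given with no test. The median was 11.8 Cdkn1a UMIs per 10000 in mouse 1, 7.77 in mouse 2 and 6.41 in mouse 3, and the highest cell, in mouse 1, reached 79.9. At the edge of the rule, the lowest cell inside and the highest outside had 7.48 and 7.20 per 10000 in mouse 1, 4.75 and 4.74 in mouse 2, and 4.18 and 4.15 in mouse 3. The set is thus the upper end of a continuous range. Identity-positive and identity-negative cells of the set had 1141 ± 631 and 1243 ± 535 CPM of Cdkn1a (SD, n = 3 mice). Irradiated granular cells outside the gate had 309 ± 127 CPM and untreated gate cells 25.9 ± 13.5 CPM.

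Over all gate cells, 69.7% ± 7.01 of irradiated and 8.18% ± 1.95 of untreated cells had at least 2 Cdkn1a UMIs (SD, n = 3 mice each). With every cell thinned to 5000 UMIs these shares were 38.2% ± 11.7 and 1.56% ± 1.35. The thinned shares were 26.9% and 1.16% in identity-positive gate cells, and 59.7% and 3.15% in identity-negative ones. Cells with Cdkn1a were thus more frequent after irradiation in both kinds of gate cells, and more frequent among the identity-negative ones.

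**Figure D2:**
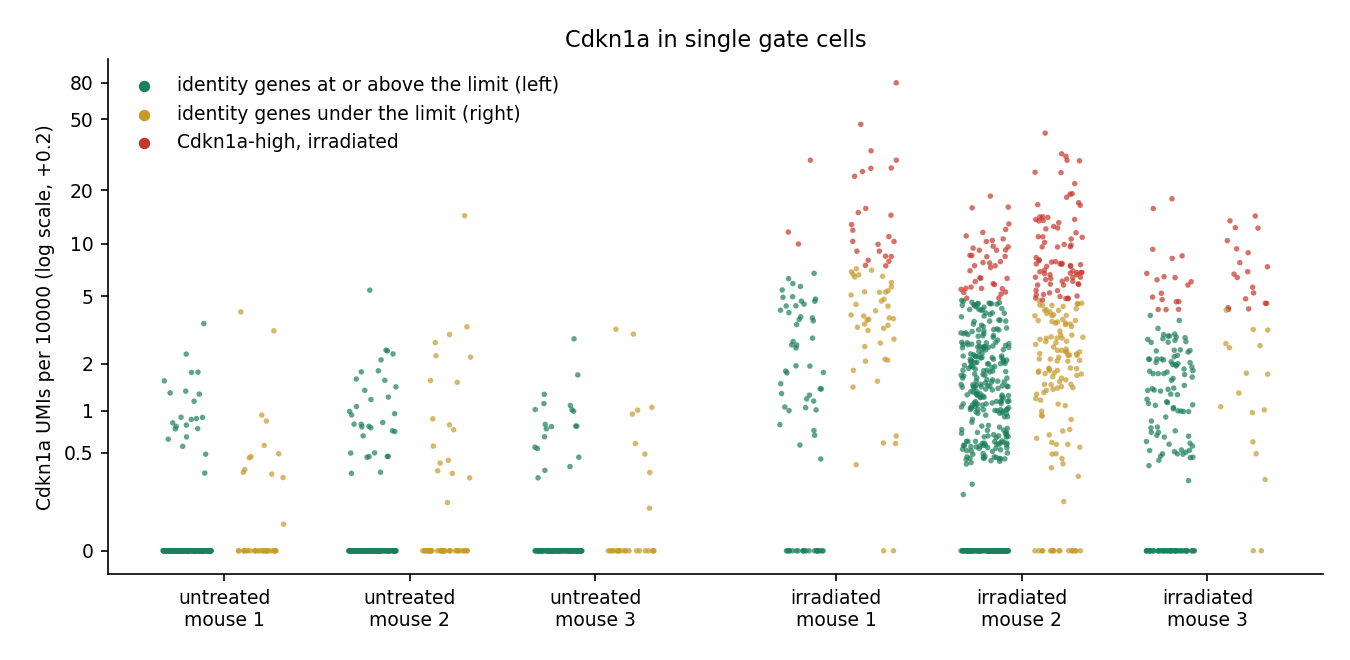
Cdkn1a UMIs per 10000 (y, log scale with 0.2 added) in every gate cell of the untreated and the irradiated mice; within a mouse, identity-positive cells are at the left and identity-negative cells at the right, and Cdkn1a-high irradiated cells are red. The red cells start at 7.48, 4.75 and 4.18 per 10000 in irradiated mice 1, 2 and 3, and 2 of 631 untreated gate cells reach the lowest of these values.

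The promoter stretches below show matches to the p53 half-site consensus in Cdkn1a and in 3 genes that were higher with it in both kinds of cells. The consensus was searched on both strands, and capitals mark the matches. The sequences are those of RefSeq on GRCm38.p6 (mm10), each 5′ to 3′ on the strand of its gene. Cdkn1a (gene at chr17:29090979-29100722) is shown at chr17:29090866-29090977 on the plus strand. Mdm2 (chr10:117688875-117710758) is shown at chr10:117710895-117710984, Ccng1 (chr11:40748552-40755309) at chr11:40755422-40755511 and Bax (chr7:45461695-45466903) at chr7:45467050-45467139, all on the minus strand.
Cdkn1a: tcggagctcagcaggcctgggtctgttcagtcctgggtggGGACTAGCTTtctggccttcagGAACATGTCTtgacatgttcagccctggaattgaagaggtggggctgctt
Mdm2: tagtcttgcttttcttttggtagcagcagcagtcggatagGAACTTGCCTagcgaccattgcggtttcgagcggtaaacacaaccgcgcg
Ccng1: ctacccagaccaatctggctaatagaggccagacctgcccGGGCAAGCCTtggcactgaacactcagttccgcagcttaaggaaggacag
Bax: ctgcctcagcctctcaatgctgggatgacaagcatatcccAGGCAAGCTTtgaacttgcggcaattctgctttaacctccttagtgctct
The 2 matches of Cdkn1a begin 73 and 51 bases before the annotated start, with 12 bases between them. Those of Mdm2, Ccng1 and Bax begin 186, 185 and 201 bases before the starts used for the promoter windows. For Ccng1 and Bax that start differs from the gene limit printed above. Of 32851 promoter windows of 300 bases (250 before to 50 after a start), 8.36% held a match, and 24 windows (0.0731%) held a pair with at most 13 bases between. Of Cdkn1a, Mdm2, Ccng1, Phlda3, Bax and Aen, 5 of 6 held a match, all but Phlda3; these 6 were chosen as known p53 targets, so the count describes them alone. Of the 19 genes called within identity-positive cells, 16 had a window and 4 held a match. These 4 were Mdm2, Ccng1, Bax and Aen, all among the 6 known targets above, so they add no separate count. Of all 27025 genes 9.55% held a match. A match describes letters and is not a measured binding site.

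Against Cdkn1a-low cells, the whole set of Cdkn1a-high cells had more granular duct RNA, more of several p53 targets and less of the ionocyte genes. Of 6948 genes tested, 1449 had an adjusted p under 0.05 (20.9%), 804 higher (11.6%) and 645 lower (9.28%). The test was edgeR's quasi-likelihood test on UMI counts summed per mouse and group, with the mouse as a block and Benjamini-Hochberg adjustment over all genes tested; log2 fold changes are given ± SE, and each group has 3 mice. The genes that the rule used were left out. Nuclear RNA moved with this contrast too: Malat1 and Neat1 were higher, 2 of the 3 tested, and the nuclear RNA markers summed to 41392 to 51234 CPM over the mice in Cdkn1a-high and to 31198 to 38135 CPM in Cdkn1a-low cells. The part of these RNAs in the calls was not tested; 0 of 3 passed in identity-positive cells (median 0.09). Klk1, a kallikrein outside the rule, stood at 139469, 111472 and 89574 CPM in Cdkn1a-high cells of mice 1, 2 and 3 and at 31851, 38485 and 29983 CPM in Cdkn1a-low cells (1.92 ± 0.11, adjusted p = 2e-05). Stap1 stood at 96.4, 223 and 507 CPM against 839, 823 and 930 CPM (-1.70 ± 0.31, adjusted p = 0.0041). For both genes the groups did not overlap. The count of genes was 834 without mouse 2, 428 with cells thinned to 5000 UMIs and 679 with DESeq2. With gate cells under 1% of granular genes it was 239 of 6674 (3.58%), 196 higher (2.94%) and 43 lower (0.644%), and 233 of the 239 were among the 1449. These cells are a part of all gate cells, so that overlap was partly fixed.

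The 10 largest increases were Duoxa2, Areg, Htr1d, Fgfbp1, Ifi202b, Gdf15, Fgg, Car2, Kitl and Reg3g. Duoxa2, the maturation factor of a dual oxidase, led with 48.9, 117 and 19.0 CPM against 0, 0.258 and 2.53 CPM (6.90 ± 0.55, adjusted p = 6e-05). All 388 of its UMIs in the set lay in 11 of the 129 identity-negative cells, 75 of them in 1 cell. Areg, a ligand of the Egf receptor, followed with 362, 100 and 40.5 CPM against 0, 2.83 and 8.43 CPM (4.89 ± 0.50, adjusted p = 0.00023), and 576 of its 581 UMIs were in identity-negative cells. Gdf15 stood at 201, 99.6 and 41.8 CPM against 2.34, 13.9 and 2.53 CPM (3.50 ± 0.33, adjusted p = 0.00017). Car2, a carbonic anhydrase, stood at 173, 195 and 173 CPM against 16.4, 29.9 and 14.3 CPM (3.20 ± 0.20, adjusted p = 2e-05), and granular cells outside the gate held 177 ± 28.1 CPM of it (SD). Most UMIs of these 4 genes came from the identity-negative cells.

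The 10 largest decreases were Plac8, Sult1c1, Hip1, Slco1a5, Aldh1a3, Rnase1, Dcn, Gpm6b, Adgrf1 and Rabep2. Aldh1a3, an enzyme of retinoic acid synthesis, was at 53.1, 229 and 292 CPM in Cdkn1a-high and 737, 855 and 903 CPM in Cdkn1a-low cells (-2.10 ± 0.30, adjusted p = 0.0014). Sult1c1, a sulfotransferase, was at 19.6, 93.0 and 381 CPM against 648, 583 and 787 CPM (-2.35 ± 0.48, adjusted p = 0.0078). Within identity-positive cells Aldh1a3 was at 431, 716 and 642 CPM against 854, 977 and 990 CPM (-0.65 ± 0.20, adjusted p = 0.38). Sult1c1 was at 136, 274 and 842 CPM there, against 760, 697 and 862 CPM (-1.06 ± 0.35, adjusted p = 0.47). All 10 genes were tested within identity-positive cells and none passed; without mouse 1, which gave 3 Cdkn1a-high cells there, Plac8 (-2.20 ± 0.46, adjusted p = 0.0045), Slco1a5 and Rabep2 did.

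Within identity-positive cells alone, 65 Cdkn1a-high against 277 Cdkn1a-low, a short list of genes was higher. Of 5754 genes tested 19 passed (0.33%), all higher in Cdkn1a-high cells, and 440 had an unadjusted p under 0.05. The p53 lists held 5 of them, Mdm2, Ccng1, Phlda3, Bax and Aen, and Lcn2, Foxq1 and Pdk4 had lower adjusted p than any of these. The 19 were Ephx1, Bax, Kcnq1ot1, Phlda3, Aen, Runx1, Tubb2a, Lgals3, Ccng1, Mdm2, Mgst1, Plaur, Socs2, Fabp5, Foxq1, Hspb8, Pdk4, Kitl and Lcn2. All of them had also been called, in the same direction, over all gate cells. Those include the identity-positive cells, so this overlap, and the one without mouse 1 below, was partly fixed. The median depth was 16356 UMIs in the Cdkn1a-high and 16885 in the Cdkn1a-low cells. Granular RNA was not balanced between them. The 15 granular duct markers summed to 863, 43268 and 28022 CPM in Cdkn1a-high cells of mice 1, 2 and 3. In Cdkn1a-low cells they summed to 3236, 7055 and 10426 CPM, so the difference was reversed in mouse 1. Granular genes took 1% or more of UMIs in 6 of the 65 and 2 of the 277 cells. The part of this in the 19 calls was not tested. Mouse 1 entered with 3 Cdkn1a-high cells; without it 144 of 7115 genes passed (2.02%), 110 higher (1.55%) and 34 lower (0.478%), of which 124 were among the 1449. Granular RNA moved with that contrast, with Klk1 at 2.50 ± 0.22 (adjusted p = 4.9e-10), and its part in the calls was not tested.

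The doublet caller Scrublet placed 16 of the 65 cells and 5 of the 277 among its highest scores, and 34 of all 194 Cdkn1a-high and 8 of all 311 Cdkn1a-low cells. Without such cells, 49 Cdkn1a-high cells (2, 32 and 15 per mouse) remained in the identity-positive comparison, and 6 of 4494 genes passed (0.134%), an alternative added after the values were seen. The 2 higher genes (0.0445%) were Mdm2 (1.92 ± 0.32, adjusted p = 0.031) and Phlda3 (1.28 ± 0.22, adjusted p = 0.031). The 4 lower ones (0.089%) were Gm26917, Ifit3, Lars2 and Tm4sf1. Ccng1 at 1.33 ± 0.33 (adjusted p = 0.35), Bax at 0.97 ± 0.22 (adjusted p = 0.24), Aen at 1.25 ± 0.30 (adjusted p = 0.28) and Ephx1 at 0.89 ± 0.25 (adjusted p = 0.57) did not pass. Lgals3 was then at 0.029 ± 0.36 and Klk1 at -0.60 ± 0.23 (adjusted p = 0.999 for both). Lcn2, Foxq1 and Pdk4 had too few UMIs there to be tested. Over all gate cells 1270 genes were called without the highest doublet scores, in place of 1449.

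Mdm2 had the lowest adjusted p of the p53 targets among these cells. It stood at 193, 105 and 90.1 CPM in identity-positive Cdkn1a-high cells of mice 1, 2 and 3, and at 30.4, 25.8 and 23.1 CPM in Cdkn1a-low cells (2.13 ± 0.20, a 4.39-fold difference, adjusted p = 0.00069). The groups did not overlap, and the mean of untreated identity-positive cells was 20.1 ± 5.8 CPM (SD, n = 3 mice). UMIs of Mdm2 were found in 37 of the 65 cells (56.9%) and in 97 of the 277 (35%), and the richest of the 65 gave 18.1% of the UMIs. Ccng1, cyclin G1, stood at 102, 92.5 and 64.7 CPM against 27.6, 19.6 and 22.2 CPM (2.02 ± 0.25, adjusted p = 0.0052), with an untreated level of 19.3 ± 2.38 CPM. Cdkn1a-low cells differed from untreated cells by 0.35 ± 0.24 for Mdm2 (adjusted p = 0.35) and by 0.13 ± 0.21 for Ccng1 (adjusted p = 0.76), neither of which passed.

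Phlda3, an inhibitor of Akt signalling, showed 3 levels instead. It was at 18.4 ± 7.36 CPM in untreated identity-positive cells, at 94.0, 65.0 and 62.8 CPM in Cdkn1a-low cells and at 397, 145 and 138 CPM in Cdkn1a-high cells. High exceeded low by 1.38 ± 0.18 (adjusted p = 0.0083), and low exceeded untreated by 1.85 ± 0.23 (adjusted p = 5.1e-05). Bax, an effector of mitochondrial cell death, was at 81.6 ± 4.88 CPM untreated, at 141, 139 and 147 CPM in Cdkn1a-low and at 397, 257 and 267 CPM in Cdkn1a-high cells. The steps were 1.04 ± 0.18 (adjusted p = 0.044) and 0.78 ± 0.10 (adjusted p = 9.5e-05). No 2 of the 3 groups overlapped for either gene, and UMIs were found in 52 of the 65 cells for Phlda3 and in 64 for Bax.

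Aen, a p53-induced nuclease, was at 125, 63.9 and 104 CPM in identity-positive Cdkn1a-high cells and at 35.9, 32.0 and 30.5 CPM in Cdkn1a-low cells (1.40 ± 0.23, adjusted p = 0.035). Ephx1, microsomal epoxide hydrolase, was at 204, 188 and 203 CPM against 94.0, 86.5 and 116 CPM (1.04 ± 0.18, adjusted p = 0.04). For both genes the groups did not overlap, and 90.8% of the 65 cells held a UMI of Ephx1 against 67.9% of the 277. Mean levels in granular cells outside the gate were below those of both groups for Aen (26.2 ± 3.37 CPM), Ephx1 (49.98 ± 7.28 CPM), Bax (132 ± 20.6 CPM) and Phlda3 (48.9 ± 9.51 CPM). They lay between both for Mdm2 (94.2 ± 36.1 CPM) and Ccng1 (62.1 ± 7.58 CPM). Of the 19 genes, 10 had a higher mean in granular cells outside the gate than in identity-positive Cdkn1a-high cells, 5 lay between and 4 below both groups.

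**Figure D3:**
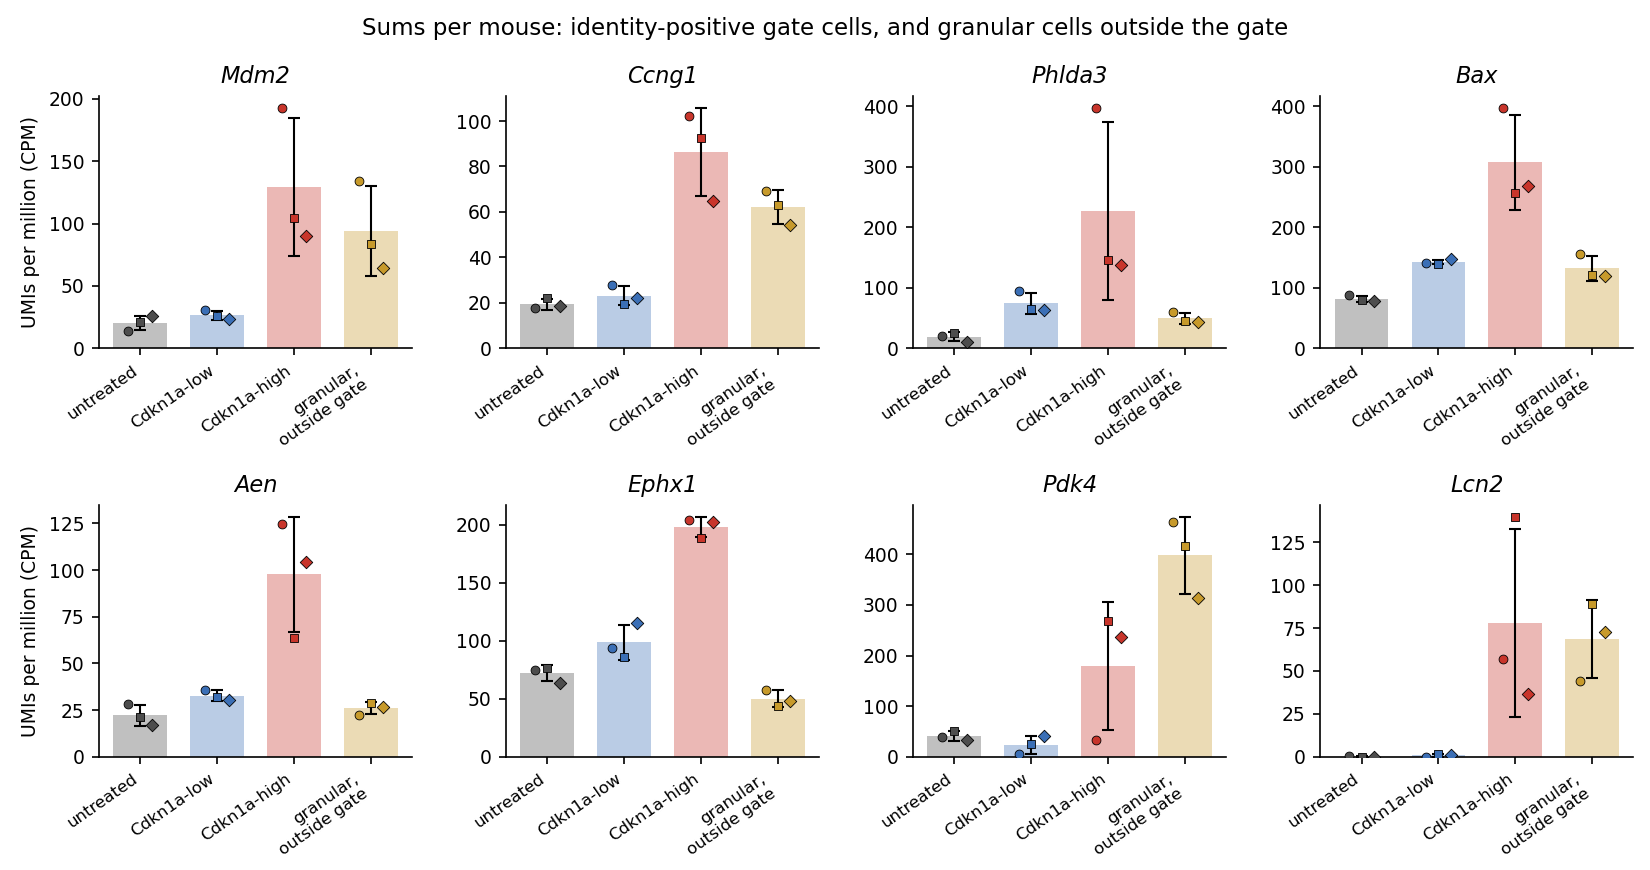
CPM of 8 genes per mouse (points; circle, square and diamond are mice 1, 2 and 3), with the mean (bar) and SD (error bar), in identity-positive gate cells of untreated mice, identity-positive Cdkn1a-low and Cdkn1a-high cells of irradiated mice, and irradiated granular cells outside the gate. For Mdm2, Ccng1, Phlda3, Bax, Aen and Ephx1 every Cdkn1a-high point lies above every Cdkn1a-low point; Pdk4 has a mean of 398 CPM in granular cells and of 179 CPM in Cdkn1a-high cells.

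Several other genes of the 19 were higher still in granular cells, or rested on few cells. Foxq1, a forkhead transcription factor, was at 22.7, 214 and 191 CPM against 8.29, 28.6 and 34.2 CPM (2.77 ± 0.20, adjusted p = 5.9e-05), and at 593 ± 97.8 CPM in granular cells outside the gate. Lgals3, galectin 3, was at 341, 1058 and 935 CPM against 122, 234 and 282 CPM (1.87 ± 0.22, adjusted p = 0.0036), and at 3803 ± 868 CPM in granular cells. Both genes were lowest in mouse 1, whose 3 Cdkn1a-high cells had the least granular RNA, 863 CPM over the 15 markers. The part of granular RNA in these differences was not tested. Lcn2, a secreted iron-carrier protein, had a log2 fold change of 6.13 ± 0.40 (adjusted p = 4.9e-05), but 108 of its 145 UMIs came from 1 cell, and 8 of the 65 cells held any. Hspb8, a small heat-shock protein, was at 420 CPM in mouse 1 and at 46.3 and 39.4 CPM in mice 2 and 3. Mouse 1 also held 2259 CPM of the basal keratin Krt17, and 198 of the 225 Krt17 UMIs of the 65 cells came from 1 cell.

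The comparison was repeated with identity-positive cells under 0.1% of granular genes, 49 Cdkn1a-high cells (3, 33 and 13 per mouse), an alternative added after the values were seen. Klk1 was then at -0.31 ± 0.21 (adjusted p = 0.89). Of 4860 genes 3 passed (0.0617%): Mdm2 (2.07 ± 0.24, adjusted p = 0.007), Pdk4, a mitochondrial kinase that restrains glucose oxidation (2.37 ± 0.29, adjusted p = 0.0086), and Lcn2 (6.46 ± 0.40, adjusted p = 2.1e-05). Ccng1 at 1.69 ± 0.29 (adjusted p = 0.068), Phlda3 at 1.26 ± 0.21 (adjusted p = 0.068), Aen at 1.36 ± 0.29 (adjusted p = 0.16), Bax at 0.96 ± 0.21 (adjusted p = 0.19) and Ephx1 at 1.10 ± 0.20 (adjusted p = 0.096) did not pass. Foxq1 was at 1.02 ± 0.41 (adjusted p = 0.75) and Lgals3 at 0.06 ± 0.30 (adjusted p = 0.999). Mdm2, Phlda3, Aen, Bax and Ephx1 moved by less than 1 SE from the fit over all identity-positive cells, Ccng1 by more than 1, and Foxq1 and Lgals3 by several. The cause of these moves was not tested.

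**Figure D4:**
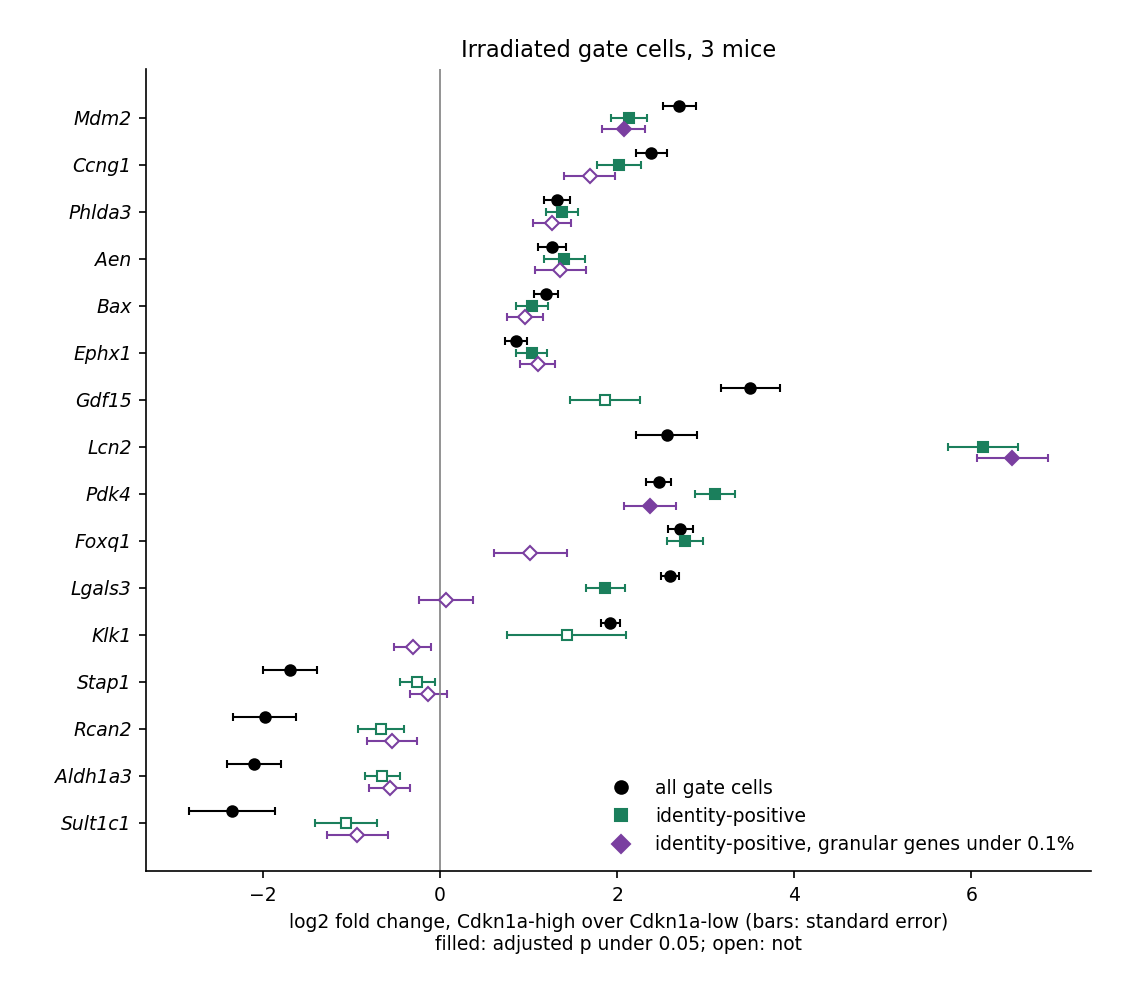
Log2 fold change of Cdkn1a-high over Cdkn1a-low irradiated cells (bars are standard errors, n = 3 mice) for 16 genes over all gate cells, identity-positive cells, and identity-positive cells under 0.1% granular genes; filled symbols passed at an adjusted p under 0.05. Mdm2 lies between 2.07 and 2.70, Lgals3 goes from 2.59 to 0.06, Klk1 from 1.92 to -0.31, and Stap1, which helped to choose the identity-positive cells, from -1.70 to -0.13.

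The 129 identity-negative Cdkn1a-high cells had more of several p53 targets than the 34 identity-negative Cdkn1a-low cells (4, 26 and 4 per mouse). Granular RNA was lower in the Cdkn1a-high cells here, with median shares of 1.69% and 2.10%. The 15 granular duct markers summed to 169093 to 179420 CPM against 225198 to 301754 CPM over the mice. The part of this shift in the calls was not tested. Of 4644 genes 44 passed (0.947%), 35 higher (0.754%) and 9 lower (0.194%). Phlda3 (2.56 ± 0.39, adjusted p = 0.00029), Btg2, an antiproliferative p53 target (2.24 ± 0.29, adjusted p = 3.7e-05), Mdm2 (1.79 ± 0.44, adjusted p = 0.042), Ccng1 (1.62 ± 0.34, adjusted p = 0.013), Bax (1.44 ± 0.28, adjusted p = 0.007) and Ephx1 (2.36 ± 0.43, adjusted p = 0.0033) were higher. Aen did not pass here (1.80 ± 0.47, adjusted p = 0.069), and Btg2 did not pass in identity-positive cells (0.37 ± 0.21, adjusted p = 0.72). Gdf15 was at 228, 124 and 52.9 CPM against 15.2, 1.5 and 0 CPM (5.46 ± 0.57, adjusted p = 4.5e-07), and its difference in identity-positive cells was 1.86 ± 0.40 (adjusted p = 0.12). Bax, Ccng1, Ephx1, Mdm2, Phlda3 and Tubb2a passed in both kinds of cells, 31.6% of the 19 identity-positive calls and 13.6% of the 44 identity-negative ones.

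Identity-negative Cdkn1a-high cells also had more of genes that did not pass in identity-positive cells; the difference between both contrasts was not tested. Fos, an AP-1 factor of the immediate-early response, was at 405, 530 and 637 CPM against 106, 58.3 and 19.3 CPM (3.10 ± 0.31, adjusted p = 4.1e-07), and 6 of 22 immediate-early genes tested were higher (Fos, Fosb, Junb, Egr1, Atf3 and Zfp36). Of all genes tested in identity-negative cells 0.754% were higher and 0.194% lower. Cxcl10, an interferon-induced chemokine, was at 250, 550 and 510 CPM against 0, 29.9 and 28.9 CPM (4.17 ± 0.34, adjusted p = 4.7e-09). Areg was higher by 2.88 ± 0.54 (adjusted p = 0.0038) and Nfkbia, the inhibitor of NF-kB, lower (-0.96 ± 0.22, adjusted p = 0.021). Fos and Cxcl10 did not overlap between the groups. Acinar markers moved with this contrast: Scgb2b26 (-2.24 ± 0.54, adjusted p = 0.038) and Scgb2b27 (-1.61 ± 0.37, adjusted p = 0.03) were lower, 2 of the 2 tested. The 14 acinar markers summed to 150, 527 and 246 CPM in the Cdkn1a-high and to 60.8, 1661 and 1803 CPM in the Cdkn1a-low cells of mice 1, 2 and 3, and their part in the calls was not tested. The identity-negative genes were chosen after their values were seen, and mice 1 and 3 each gave 4 Cdkn1a-low cells.

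By gene list over all gate cells, called p53 targets were all higher. Of 22 arrest and feedback genes 12 were tested and 5 were higher (Mdm2, Ccng1, Phlda3, Rps27l and Epha2), with a median log2 difference of 0.67. Of 15 death genes and receptors 7 were tested and 4 were higher (Bax, Bbc3, Aen and Perp; median 0.60), and of 9 repair genes 6 were tested and 2 were higher (Polk and Gadd45a; median 0.47). All genes tested had a median of -0.0037, with 11.6% called higher. In identity-positive cells 3 of 11 arrest genes and 2 of 7 death genes passed (medians 0.37 and 0.43), and 0 of 4 repair genes did, against 0.33% of all genes. Fas and Eda2r, death receptors under p53 control, did not pass over all gate cells (0.40 ± 0.20, adjusted p = 0.2; 0.28 ± 0.24, adjusted p = 0.46).

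Stress lists had many calls over all gate cells and few or none in identity-positive cells, depending on mouse 1. Of 18 integrated stress response genes tested 9 were higher and 1 lower (median 0.65), among them Atf4, its transcription factor, with 545, 412 and 319 CPM against 133, 226 and 169 CPM (1.38 ± 0.21, adjusted p = 0.0018). Of 18 NRF2 and oxidative stress genes 9 were higher (median 0.62), among them the heme oxygenase Hmox1 (1.34 ± 0.21, adjusted p = 0.0023). Of all genes tested over all gate cells 11.6% were higher and 9.28% lower. In identity-positive cells edgeR called 0 of 13 and 0 of 16, with Atf4 at 0.91 ± 0.21 (adjusted p = 0.16) and Hmox1 at 1.01 ± 0.23 (adjusted p = 0.15). Without mouse 1 it called 3 of 16, Atf4 (0.68 ± 0.15, adjusted p = 0.01), Ddit4 and Mthfd2, and 2 of 18, Hmox1 (0.92 ± 0.18, adjusted p = 0.0025) and Gsta4, all higher. In that fit 4 of 22 immediate-early genes were also higher, Klf6, Klf10, Dusp1 and Myc. Of all genes tested in that fit 1.55% were higher. Granular markers moved with these lists over all gate cells and without mouse 1, and their part in the calls was not tested.

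The ionocyte list was lower over all gate cells. Of 25 identity and transport genes 16 were tested and 13 were lower, with a median of -1.32, against 9.28% of all genes tested. Among them was Cftr, the chloride channel, with 34.9, 51.2 and 39.2 CPM against 63.1, 76.2 and 90.2 CPM (-0.64 ± 0.17, adjusted p = 0.025). Stap1 and Rcan2 of this list, and Atp6v1g3 of the V-ATPase subunits, chose the identity-positive cells of both groups, so the loss of their difference there was partly fixed. In identity-positive cells 0 of 16 passed, 15 had a negative sign and the median was -0.29, with Cftr at 56.8, 55.1 and 59.1 CPM against 63.6, 82.1 and 96.1 CPM (-0.53 ± 0.19, adjusted p = 0.52). Of 17 other V-ATPase subunits 8 were lower and 1 higher over all gate cells, and 0 of 17 passed in identity-positive cells. Of all genes tested 9.28% were lower and 11.6% higher over all gate cells, and 0.33% passed in identity-positive cells.

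Inflammatory and presentation lists had few calls between identity-positive Cdkn1a-high and Cdkn1a-low cells by edgeR's test, and more without mouse 1. With all 3 mice 0 of 15 NF-kB genes, 0 of 23 interferon-stimulated genes and 0 of 14 class I presentation genes passed, and all 14 class I genes had a negative sign (median -0.41). Of 15 secreted factors 2 passed, Plaur, the urokinase receptor (2.26 ± 0.36, adjusted p = 0.03), and Lcn2, against 0.33% of all genes tested. Without mouse 1 the interferon list had 1 of 23 genes higher, Gbp2, and 4 lower, Isg15 (-0.74 ± 0.15, adjusted p = 0.004), Irf7, Oas1a and Bst2. Nfkbia was lower (-0.59 ± 0.14, adjusted p = 0.014), 1 of 15 NF-kB genes, and 6 of 15 secreted factors were higher, Cxcl2, Gdf15, Hbegf, Plaur, Vegfa and Lcn2. Of all genes tested without mouse 1, 1.55% were higher and 0.478% lower. Of the other cell-cycle inhibitors and cyclins 0 of 5 passed, and 0 of 3 division genes. Ccnd1, cyclin D1, was called over all gate cells (2.05 ± 0.31, adjusted p = 0.0018) and stood at 715, 44.1 and 31.0 CPM in identity-positive Cdkn1a-high cells, highest in mouse 1 with its 3 cells.

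Among untreated gate cells at least 2 Cdkn1a UMIs were also required, which gave 52 Cdkn1a-high cells (15, 24 and 13 per mouse) against 579. These 52 were all untreated gate cells with 2 or more Cdkn1a UMIs, so the limit of 20% left none out. Their median depth was 19603.5 UMIs against 11900 in the 579, and 57.7% against 83.1% were identity-positive. Of 7814 genes 114 passed (1.46%), 81 higher (1.04%) and 33 lower (0.422%). With low cells matched in UMIs 9 passed, and within identity-positive cells 41 did. Mdm2 (-0.16 ± 0.41, adjusted p = 0.93) and Ccng1 (0.35 ± 0.33, adjusted p = 0.78) did not pass. The untreated Cdkn1a-high cells had a median of 2 Cdkn1a UMIs, so their contrast spans less Cdkn1a than the irradiated one. With mice assigned by hashtag share instead, edgeR called 0 of 2942 genes, 172 of them at an unadjusted p under 0.05. That assignment left 18, 250 and 15 untreated gate cells in mice 1, 2 and 3, in place of 228, 232 and 171. The test of the difference between both contrasts called 58 of 7552 genes (0.768%), 44 more positive after irradiation (0.583%) and 14 more negative (0.185%). Mdm2 differed by 2.86 ± 0.45 (adjusted p = 0.011), Ccng1 by 2.05 ± 0.34 (adjusted p = 0.015) and Bax by 1.20 ± 0.21 (adjusted p = 0.018). This count was 13 without untreated mouse 3, 22 without untreated mouse 1, 33 without untreated mouse 2 and 30 without irradiated mouse 2. In identity-positive cells 2 of 6614 genes passed this test (0.0302%), Mdm2 (3.24 ± 0.56, adjusted p = 0.046) and Car2 (3.43 ± 0.58, adjusted p = 0.046). UMIs of Car2 were found in 12 of the 65 irradiated Cdkn1a-high cells there, and 1 cell gave 29.7% of them.

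Identity-positive Cdkn1a-high cells and identity-positive Cdkn1a-low cells were each set against all identity-positive untreated gate cells, which both comparisons share. Over all gate cells, Cdkn1a-high cells differed from untreated cells in 2588 of 9488 genes (27.3%), 1514 higher (16%) and 1074 lower (11.3%), and Cdkn1a-low cells in 2041 of 9664 (21.1%), 1207 higher (12.5%) and 834 lower (8.63%). Within identity-positive cells 810 of 8060 genes passed for Cdkn1a-high cells (10.0%), 538 higher (6.67%) and 272 lower (3.37%). For Cdkn1a-low cells 1648 of 8976 passed (18.4%), 972 higher (10.8%) and 676 lower (7.53%). The identity-positive Cdkn1a-high sums held 88099, 907979 and 355259 UMIs in mice 1, 2 and 3. The Cdkn1a-low sums held 361892, 3214507 and 1082236. The part of this difference in the counts of genes was not tested. Fas stood at 9.57 ± 1.71 CPM untreated, 31.3 ± 10.4 CPM in Cdkn1a-low and 50.1 ± 25.5 CPM in Cdkn1a-high cells (SD, n = 3 mice). Its differences from untreated were 1.84 ± 0.24 (adjusted p = 8.8e-05) and 1.99 ± 0.30 (adjusted p = 0.0005). Trp53inp1, a p53 target that promotes cell death, stood at 24.2 ± 1.25, 77.5 ± 7.11 and 112 ± 41.6 CPM in the same order, with differences of 1.62 ± 0.14 (adjusted p = 1.8e-06) and 1.93 ± 0.19 (adjusted p = 1.4e-05). Mdm2 and Ccng1 were higher than untreated in Cdkn1a-high cells, by 2.44 ± 0.24 (adjusted p = 1.4e-05) and 2.12 ± 0.21 (adjusted p = 1.4e-05). Fas and Trp53inp1 thus passed in both groups of cells, and Mdm2 and Ccng1 passed in the Cdkn1a-high cells.

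Of 15 secreted factors tested 12 were higher than untreated in identity-positive Cdkn1a-high cells (median 1.70), and 14 of 17 in Cdkn1a-low cells (median 1.82). Of the NF-kB genes 10 of 15 and 13 of 17 were higher, and of the class I genes 6 of 14 and 12 of 14. Of all genes tested 6.67% and 10.8% were higher, in the same order. The Cdkn1a-high sums held fewer cells and UMIs than the Cdkn1a-low sums in each mouse, and the part of this in the counts was not tested. Acinar markers moved with irradiation in both groups, with 6 of 6 tested lower than untreated, against 3.37% and 7.53% of all genes tested. The 14 acinar markers summed to 26113 to 53689 CPM in untreated gate cells and to 22.7 to 113 CPM in identity-positive Cdkn1a-high cells, with Aqp5, Dcpp1 and Dcpp2 at 0 there; their part in these counts was not tested.

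The genes most like Cdkn1a, by the smallest log2 difference of high over low in any of the 3 irradiated mice, were Fgfbp1 (3.13), Fgg (2.98), Gdf15 (2.75), Car2 (2.66) and Duoxa2 (2.50). In the identity-positive cells Fgfbp1, a carrier of fibroblast growth factors, was at 0, 20.9 and 22.5 CPM and Fgg, a fibrinogen chain, at 0, 3.30 and 36.6 CPM. Granular cells outside the gate had 30.3 ± 7.79 and 121 ± 28.8 CPM of them. Within identity-positive cells Gdf15 was tested and did not pass, and the other 4 genes had too few UMIs to be tested. Without mouse 1 Car2 (4.46 ± 0.29, adjusted p = 2.3e-13), Fgfbp1 (3.37 ± 0.60, adjusted p = 0.0006) and Gdf15 (1.80 ± 0.36, adjusted p = 0.0023) were higher there. Over the 3 mice, 12 of the 65 cells held a UMI of Car2 and 0 held one of Duoxa2. UMIs of Duoxa2 were found in 11 of the 129 identity-negative Cdkn1a-high cells. Granular RNA was also higher in the fit without mouse 1, and its part in these differences was not tested.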

How the data were processed

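Mouse submandibular gland epithelium was profiled by droplet single-cell RNA sequencing with hashtag antibodies. The deposited values are whole-number UMI counts per gene and cell, made by the authors with Cell Ranger 6.1.2 against mm10, per the file headers and the submitters' processing notes. Rows that name hashtags were used only to assign cells to mice.

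Cells were assigned with HTODemux (Seurat 5.3.0, 5 starting clusters). Counts were summed per mouse and cell group, and the sums were tested with edgeR 4.0.16 (filterByExpr, TMM, quasi-likelihood test; R 4.3.3) at an adjusted p of 0.05; DESeq2 1.42.0 was an alternative. The mouse was a block between groups of cells of the same mice. Deviations of Cdkn1a-high and Cdkn1a-low sums from their group means correlated at 0.0147, 0.0840 and 0.142 in mice 1, 2 and 3 over 4814 genes; the pairing comes from the shared animals. The replicates are mice told apart by hashtag within 1 library. On simulated counts for the contrast of Cdkn1a-high against Cdkn1a-low irradiated cells (6897 genes), 25.8% of genes changed by a log2 of 1 and 98.9% of those changed by a log2 of 2 were recovered, with 0 false calls. The simulation changed 185 of these genes, gave every gene the same dispersion and mixed no kinds of cells. Its rates apply to that setting only, and the fits within subsets were not simulated.

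The cells and gene lists were chosen with earlier results of these data known. Named genes are the 10 per direction with the largest log2 fold change among called genes of at least 20 CPM that moved alike in all 3 mice (without gene models and ribosomal genes), up to 4 called genes per list, the p53 lists by count, and the 5 genes most like Cdkn1a. The genes named within identity-positive and identity-negative cells, both subsets, the subset under 0.1% granular genes, the identity-positive run without the highest doublet scores, the one without mouse 1 and the run with 4 starting clusters were added after seeing the data. The alternatives were another test, no filter on low counts, thinning, hashtag share, doublet scores, gate limits, depth matching, blocks and leaving out each mouse. Intervals cover counting error only. The hashtag libraries and the basal sort entered no comparison.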

Additional observations from a re-analysis of the deposited data

Results flagged for a closer look

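For 8 of the named genes the difference between Cdkn1a-high and Cdkn1a-low gate cells was larger after irradiation than in untreated mice by edgeR's test of the difference itself. Of all 7552 genes tested, 44 were more positive after irradiation (0.583%) and 14 more negative (0.185%). Mdm2 stood at 2.70 (log2) after irradiation and -0.16 in untreated mice, a difference of 2.86 ± 0.45 (SE, adjusted p = 0.011). Ccng1 stood at 2.39 and 0.35 (difference 2.05 ± 0.34, adjusted p = 0.015). Bax stood at 1.20 and -0.00043 (difference 1.20 ± 0.21, adjusted p = 0.018). Gadd45a, a p53 target of the DNA repair list, stood at 0.64 and -0.50 (difference 1.16 ± 0.17, adjusted p = 0.0072).

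The other 4 genes had mean levels in irradiated granular cells outside the gate of 177 CPM (Car2), 593 CPM (Foxq1), 398 CPM (Pdk4) and 3803 CPM (Lgals3), against 180.4, 762, 563 and 4258 CPM in the Cdkn1a-high cells. Car2 stood at 3.20 and 0.71 (difference 2.49 ± 0.44, adjusted p = 0.018), and Foxq1 at 2.71 and 0.93 (difference 1.79 ± 0.21, adjusted p = 0.0028). Pdk4 stood at 2.47 and 1.13 (difference 1.36 ± 0.22, adjusted p = 0.014), and Lgals3 at 2.59 and 1.19 (difference 1.47 ± 0.30, adjusted p = 0.034). In identity-positive cells this test called Mdm2 and Car2, with UMIs of Car2 in 12 of the 65 irradiated Cdkn1a-high cells. All 8 were higher in Cdkn1a-high than in Cdkn1a-low cells in each of the 3 irradiated mice.

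Gate cells without a hashtag call entered no comparison, yet held Cdkn1a-high cells. Of 89 such irradiated cells 21 (23.6%, exact 95% interval 15.2% to 33.8%) reached the lowest Cdkn1a value of the set, 4.18 UMIs per 10000. Among untreated gate cells it was 2 of 631 with a hashtag (0.317%, interval 0.0384% to 1.14%) and 0 of 153 without one (upper bound 2.38%). Of 99 irradiated gate cells called hashtag doublets 40 (40.4%) reached it.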

How the results depend on the processing

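Over 58 named genes, 1135 repeats under alternatives gave 975 with the same direction and side of the threshold, 144 no longer past it and 11 newly past it. In 5 the sign turned, all in identity-negative cells: Runx1 -0.16, Plaur -0.57, Fabp5 -0.26, Pdk4 -0.069 and Lcn2 -0.47. None of these 5 passed there (adjusted p from 0.95 to 0.99), and the causes of the moves below were not tested.

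Counts of called genes moved more. For Cdkn1a-high against Cdkn1a-low irradiated cells (1449) they were 679 with DESeq2, 428 thinned, 712 with low cells matched in UMIs, 196 with at least 10 ionocyte UMIs, 239 under 1% granular genes, 19 identity-positive (144 without mouse 1, 3 under 0.1% granular genes, 6 without the highest doublet scores), 44 identity-negative and 743 with 4 starting clusters; leaving out each mouse gave 834 to 1415. Without the replicate block it was 1455. With 4 starting clusters irradiated mouse 2 had 184 gate cells in place of 634, and 37 Cdkn1a-high cells in place of 127. The number of cells assigned to that mouse thus depended on this setting.

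For untreated cells (114) they were 61 with DESeq2, 220 with no filter on low counts, 39 thinned, 0 by hashtag share (172 at an unadjusted p under 0.05 by edgeR), 34 without the replicate block, 26 with the rule on thinned counts, 9 matched, 36 with at least 10 ionocyte UMIs, 2 at 10% mitochondrial UMIs, 41 identity-positive, and 78 to 220 leaving out each mouse. For the difference of contrasts (58) they were, in the same order from no filter, 270, 14 thinned, 17 by hashtag share, 5 without the block, 36 rule on thinned counts, 32 matched, 7 against all other gate cells, 1 with at least 10 ionocyte UMIs, 7 under 1% granular genes, 26 at 10% mitochondrial UMIs, 2 identity-positive, and 13 to 68 leaving out each mouse.

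Against untreated cells, Cdkn1a-high cells (2588) gave 1284 thinned, 1574 by hashtag share, 810 identity-positive, 2121 with a replicate block and 1614 to 2492 leaving out each mouse. Cdkn1a-low cells (2041) gave 1217 with DESeq2, 865 thinned, 1104 by hashtag share, 1789 with a replicate block and 1231 to 2069 leaving out each mouse; the lowest count of both came without irradiated mouse 2. Those replicate numbers pair no animals. Thinned to 2000 UMIs, the shares of gate cells with at least 2 Cdkn1a UMIs fell from 38.2% to 15.3% after irradiation and from 1.56% to 0.144% in untreated mice, so depth limits the shares more than their order.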
